A study of Rattus norvegicus with 5 samples.

Results

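The clones 5-3.14 and 5-3.19 of the rat insulinoma line INS-1 were compared with the parental INS-1 cells from which they were made. These are 3 of the 5 samples of the study, and each had 1 expression array. Both are clonal lines of the kind called Flp-In T-REx: each carries an FRT site, the short target of the Flp recombinase at which a chosen gene can be inserted, and each makes the tetracycline repressor, which holds such a gene silent until tetracycline is given. The parental cells are INS-1 without these elements. The other 2 samples are the clones 1-1.2 and 1-1.16, built in the same way, and they serve here as a second comparison. The labels of these samples name no inserted gene and no tetracycline treatment, and they do not say what the first part of a clone name stands for or whether clones with the same first part share an origin. The clones therefore differ from the parental line in the FRT site, in the repressor, in selection and in having been cloned, and the arrays cannot separate these. Clones that share the first part of the name are called a set and sister clones here, by name only.

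INS-1 cells descend from a radiation-induced rat insulinoma and are used as a model of the pancreatic beta cell, the islet cell that makes insulin. Rats have a pair of insulin genes: Ins2 is the ancestral gene, and Ins1 arose from it by retroposition of a partly spliced transcript. A beta cell keeps its identity through transcription factors such as Pdx1, Nkx6-1 and Neurod1, senses glucose through the transporter Slc2a2 and the ATP-sensitive potassium channel of Kcnj11 and Abcc8, and stores insulin in granules whose cargo is cut by prohormone convertases. Insulinoma lines often also make hormones of other islet or gut endocrine cells, such as glucagon and gastrin. The question addressed here is which transcripts both 5-3 clones carried at another level than the line they came from.

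The deposited signals are on an arbitrary linear scale and had been scaled alike, with a trimmed mean of 1000.24 to 1000.28 and a median of 342 to 372 on the 5 arrays. A probe set was tested if its mean log2 level over all arrays matched a signal of about 194 or more. This filter was met by 9520 of 15866, for 6944 genes. Precision is limited throughout by having so few arrays. The parental array stood apart in RNAs that are added during preparation. Poly(A) control transcripts were brighter on it than on the 5-3 arrays, by 3.37-fold for lys and by 1.24-fold to 1.44-fold for the other 4 (medians over probe sets), and hybridisation controls read 0.812 of the 5-3 signal, lowest on the parental array in 15 of 18 probe sets. Beta-actin gave a 3′ to 5′ signal ratio, a sign of RNA integrity, of 1.60 on the parental array and 1.62 and 1.61 on the arrays of clones 5-3.14 and 5-3.19. With 1 parental array, the line and the handling of its array cannot be told apart in any difference from it.

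The labelled cell type was checked against its markers. All 9 beta cell markers on the array were bright enough to test, and Ins1 was the brightest probe set on each of the 5 arrays. Of markers of other pancreatic cells, none of 9 acinar, 7 fibroblast, 3 endothelial and 6 leukocyte genes on the array reached the filter. The highest single signals among them were 253 on the parental array, 183 in clone 5-3.14 and 195 in clone 5-3.19. Summed, the acinar markers read 621, 510 and 661, the fibroblast markers 696, 570 and 526, the endothelial markers 115, 85.6 and 113 and the leukocyte markers 612, 536 and 653 on the parental, 5-3.14 and 5-3.19 arrays. Of 3 duct markers, Krt7 alone reached the filter, at 1834 on the parental array, 808 in clone 5-3.14 and 1218 in clone 5-3.19. Of 4 markers of other islet endocrine cells, glucagon alone reached it. Acinar, fibroblast, endothelial and leukocyte markers thus read low on all 3 arrays, and Krt7 and glucagon did not.

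Both 5-3 clones kept their main insulin transcript and read far lower for the other one. Ins1 read 37360 on the parental array, 37972 in clone 5-3.14 and 37190 in clone 5-3.19, a difference of at most 0.02 on the log2 scale. Ins2 read 28816 on the parental array, 3953 in clone 5-3.14 and 4303 in clone 5-3.19, which is 7.26-fold and 6.67-fold lower. The clones' Ins2 values lay close together and far below the parental value, while their Ins1 values straddled it. In set 1-1, Ins2 read 30224 in clone 1-1.2 and 5381 in clone 1-1.16, so that a low Ins2 signal was also found in 1 clone of the other set. The difference did not pass limma's test between the clone sets (Benjamini-Hochberg adjusted p = 0.349). The transcripts of the pair are very similar, so each probe set may also pick up some of the other transcript, and no saturation marks were used for Ins1, the brightest signal. In such bulk RNA, fewer cells with a transcript and less of it per cell cannot be told apart.

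The stretches upstream of both insulin genes are shown because their genes parted in these clones. They cover the 250 bases before the annotated transcript start, from RefSeq on the GRCr8 build, 5′ to 3′ on the strand of the gene. Capitals mark GCCATCTG, the core of the E-boxes described in rat insulin promoters, and TAAT, the core bound by homeodomain proteins such as Pdx1, each on either strand. Ins1 lies at chr1:261185869-261186118 on the plus strand and Ins2 at chr1:207273806-207274055 on the minus strand. The stretch before gastrin (Gast), at chr10:85764966-85765215 on the plus strand, is given because the gastrin transcript is described next.
Ins1: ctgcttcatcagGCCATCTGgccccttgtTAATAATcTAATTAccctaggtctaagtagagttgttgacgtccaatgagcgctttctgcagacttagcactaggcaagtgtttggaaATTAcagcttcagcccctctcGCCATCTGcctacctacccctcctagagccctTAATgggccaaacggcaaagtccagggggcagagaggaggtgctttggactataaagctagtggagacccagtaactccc
Ins2: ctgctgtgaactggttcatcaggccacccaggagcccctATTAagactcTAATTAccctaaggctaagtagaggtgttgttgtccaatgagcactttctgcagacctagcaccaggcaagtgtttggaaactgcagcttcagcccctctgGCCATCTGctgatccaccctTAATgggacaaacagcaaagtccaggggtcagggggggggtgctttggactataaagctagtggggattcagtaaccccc
Gast: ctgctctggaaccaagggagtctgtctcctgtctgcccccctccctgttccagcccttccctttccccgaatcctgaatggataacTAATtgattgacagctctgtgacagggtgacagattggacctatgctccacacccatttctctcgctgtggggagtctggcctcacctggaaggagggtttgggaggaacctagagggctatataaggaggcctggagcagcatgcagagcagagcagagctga
Ins1 holds GCCATCTG at 2 places, starting 238 and 112 bases before the transcript start, and Ins2 holds it once, starting 100 bases before it. TAAT occurs 6 times before Ins1, 4 times before Ins2 and once before Gast, which has no GCCATCTG in this window. No match of one motif overlapped a match of the other. Of 33469 promoter stretches of this length in the same table, 0.998% hold GCCATCTG at least once and 0.0179% at least 2 times, and 57.0% hold TAAT. The Ins1 and Ins2 stretches were identical in 206 of 262 aligned columns (78.6%), and the more distal GCCATCTG of Ins1 is not found before Ins2 in this window. These matches describe the reference sequence and were not measured in the clones.

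Gastrin, a gut hormone that drives gastric acid secretion and is made by fetal islets and some islet tumours, read near the bottom of the signal range in both clones. Gast read 1362 on the parental array, 12.9 in clone 5-3.14 and 18.0 in clone 5-3.19. The 1-1 clones lay on the other side of the parental value, at 2540 and 3474, so the 5-3 clones did not overlap any other array. The 5-3 signals are below the 21.8 units added before taking logs, so the size of the difference depends on that offset: on the log2 scale it was -5.22, but -3.82 with an offset 4 times larger and -6.04 with one 4 times smaller. A limma fit of all 5 arrays called 1 of 9520 probe sets (0.0105%) between set 5-3 and the parental array, which was Gast (SE 0.33, adjusted p = 0.0138). That fit has no measure of the parental line's own spread, and Gast passed the filter through the other 3 arrays. Its adjusted p was 0.102 without the filter, and with the stricter filter it was not tested, so the call is given as a description. Limma found 743 probe sets with an unadjusted p under 0.05 in this comparison. The number that passed the adjustment changed when any single clone was left out: 19 were called without clone 1-1.2, 17 without clone 1-1.16, 14 without clone 5-3.14 and 141 without clone 5-3.19.

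Glucagon, the hormone of the islet alpha cell, went the opposite way. Gcg read 6874 on the parental array, 20550 in clone 5-3.14 and 24434 in clone 5-3.19, or 2.98-fold and 3.55-fold higher. Both clones lay above all other arrays, but clone 1-1.16 came near, at 17772, while clone 1-1.2 read 2064 (adjusted p = 0.382 between the sets, limma). Neuropeptide Y (Npy), which restrains insulin release, read 5552 on the parental array, 1664 in clone 5-3.14 and 1426 in clone 5-3.19, and the cocaine- and amphetamine-regulated peptide gene Cartpt read 603, 244 and 217. For Npy, clone 1-1.16 read 1621, inside the range of the 5-3 clones, whereas for Cartpt both 1-1 clones stayed at 662 and 537. Islet amyloid polypeptide (Iapp), co-secreted with insulin, read 27899, 28102 and 19160. Of 10 hormone and peptide genes bright enough to test, Gcg was at least 2-fold higher in both 5-3 clones and Gast, Ins2, Npy and Cartpt at least 2-fold lower. Over all 9520 probe sets the shares were 1.25% higher and 1.37% lower. Cholecystokinin (Cck) was above the parental value of 5689 in both, at 6537 and 10280. Secretin (Sct) divided the clones, with 244 on the parental array, 1176 in clone 5-3.14 and 278 in clone 5-3.19.

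**Figure D1:**
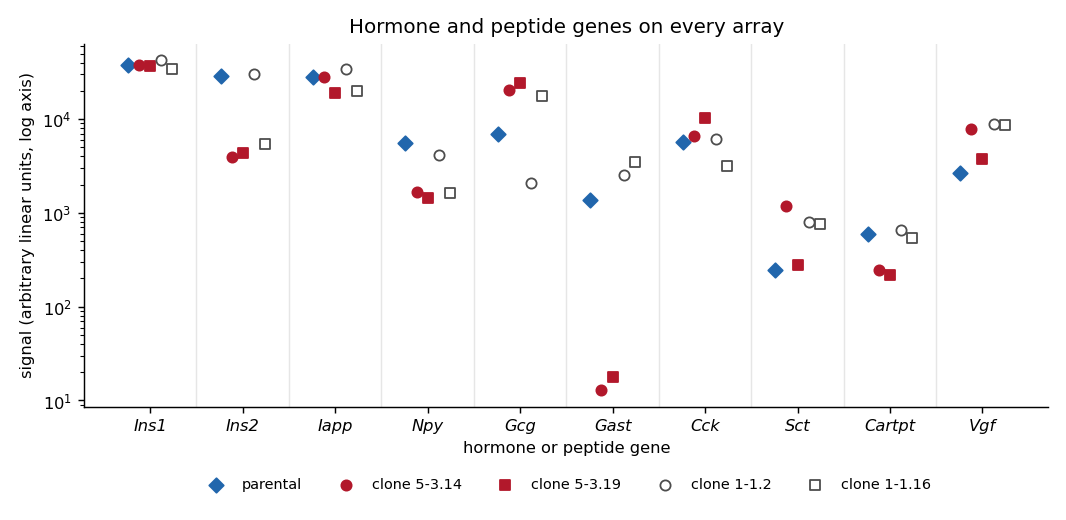
Signals of the 10 tested hormone and peptide genes on each of the 5 arrays, 1 point per array, on a log axis in arbitrary linear units. Both 5-3 clones lie below every other array for Gast, at 12.9 and 18.0, and for Ins2, at 3953 and 4303, and at the parental level for Ins1.

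Genes of beta cell identity and glucose response were read next. Pdx1, the master factor of the beta cell, read 2830 on the parental array, 2845 in clone 5-3.14 and 2185 in clone 5-3.19, and Neurod1, an activator of insulin transcription, read 8773, 6392 and 5773. Of 12 islet transcription factors, none was 2-fold away in both clones, and with shares of 1.25% and 1.37% over all probe sets a count of 0 says nothing particular about them. Bhlha15 (Mist1), a factor of secretory cells, came nearest, with 369, 196 and 108. The potassium channel genes Kcnj11 and Abcc8 read 3414, 4442 and 4118 and 2573, 2355 and 2474. Chga, the granule protein chromogranin A, read 24082, 21575 and 24607, and Pcsk2, a proinsulin convertase, 9130, 7512 and 8705. These 3 arrays lay together for Pcsk2, and the 1-1 clones lay lower, at 3331 and 1974 (adjusted p = 0.0692 between the sets, limma). The glucose transporter gene Slc2a2 and the factor Nkx6-1 divided the sister clones: Slc2a2 read 8926 on the parental array, 4153 in clone 5-3.14 and 10531 in clone 5-3.19, and Nkx6-1 read 2220, 1031 and 2158. Hnf4a, a nuclear receptor of liver, gut and islet, read 433, 404 and 362.

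In both clones, 119 probe sets (1.25% of those tested) read at least 2-fold higher than the parental array and 130 (1.37%) at least 2-fold lower. Named by a single symbol, these were 106 and 98 genes, and 10 and 29 of the probe sets had no single symbol. These counts rest on the agreement of the clones and on 1 parental value, not on a test. Each clone alone gave more: 316 higher and 533 lower in clone 5-3.14, and 244 and 248 in clone 5-3.19. At an 8-fold limit, 3 were higher and 6 lower in both. In 28 of the 119 higher and 53 of the 130 lower probe sets, the parental or a 5-3 signal was under the filter signal. The folds of such dim probe sets depend on the offset. The median gap between the sister clones was 0.26 on the log2 scale among the higher and 0.32 among the lower probe sets, and 0.29 over all tested. In all, 11 of the higher and 16 of the lower probe sets differed by 2-fold or more between the sister clones. Over all tested probe sets both clones were above the parental value in 31.5% and below it in 34.2%, and the median difference was -0.02 in clone 5-3.14 and -0.01 in clone 5-3.19.

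**Figure D2:**
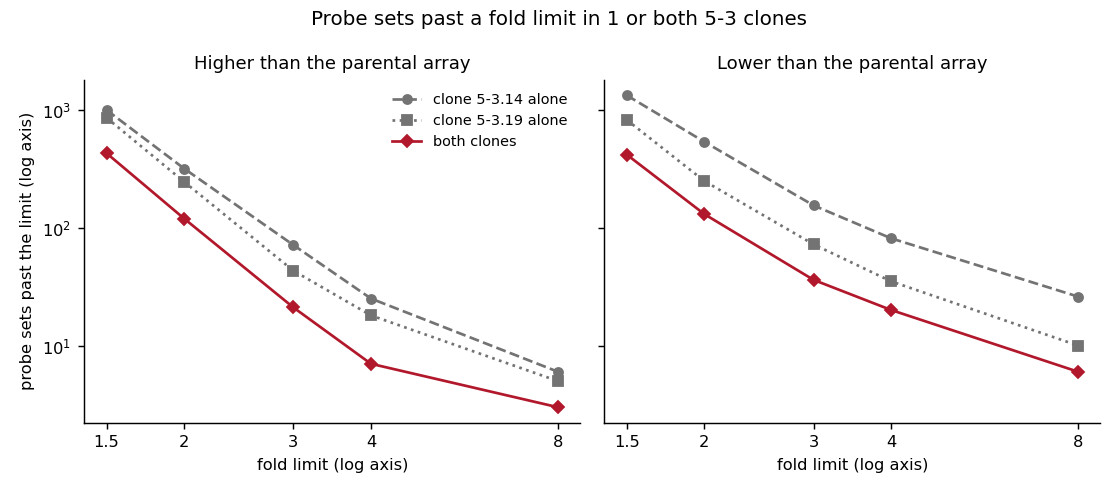
Number of probe sets (log axis) at or past each fold limit (log axis, 1.5 to 8) against the parental array, for clone 5-3.14 alone, clone 5-3.19 alone and both. At 2-fold, 119 probe sets were higher and 130 lower in both, and clone 5-3.14 alone had the most lower probe sets, 533.

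The farthest shared increase was in Fetub, which encodes fetuin B, a secreted protease inhibitor of liver. Fetub read 192 on the parental array, 3139 in clone 5-3.14 and 2556 in clone 5-3.19, while the 1-1 clones read 30.3 and 47.0. The parental value lay between the sets, and the log2 differences from it were 3.89 and 3.59. That value was just under the filter signal, and the mean difference was 3.39 and 3.85 with an offset 4 times larger and smaller. Trefoil factor 3 (Tff3), a secreted peptide of mucous cells, was among the brightest transcripts of the clones, with 7592 on the parental array, 30294 in clone 5-3.14 and 27465 in clone 5-3.19. Both 1-1 clones read below the parental value, at 961 and 976. E-cadherin (Cdh1), the adhesion molecule of epithelial junctions, read 2048, 7768 and 6524, with 1303 and 1306 in the 1-1 clones. For these 3 genes the 5-3 clones lay above the parental array and the 1-1 clones below it.

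Several regulators of transcription stood above the parental array. Zfp703, a zinc finger corepressor, read 54.8 on the parental array, 439 in clone 5-3.14 and 497 in clone 5-3.19, and Nacc1, a BTB domain repressor, read 56.2, 444 and 420. Both 1-1 clones also lay above the parental value, at 145 and 386 for Zfp703 and 138 and 210 for Nacc1. Both genes were under the filter signal on the parental array, so the sizes of their increases move with the offset. Id2, which blocks basic helix-loop-helix factors, read 276, 1442 and 1239, with a second probe set at 1477, 4104 and 2888. Barhl1, a homeobox gene known from the developing brain and inner ear, read 351, 1314 and 1256, against 257 and 342 in the 1-1 clones. Klf2, a zinc finger factor, read 290, 1246 and 1024 with this probe set, but its other bright probe set gave only 536, 798 and 802. Runx1, a factor of blood development, read 151 on the parental array, 1877 in clone 5-3.14 and 660 in clone 5-3.19, and it was also high in the 1-1 clones, at 1583 and 1105. Its parental value too was under the filter signal.

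Signalling and trafficking genes formed another part of the shared increases. Ppp1r9a (neurabin), a scaffold that binds actin and protein phosphatase 1, read 88.0 on the parental array, 992 in clone 5-3.14 and 1094 in clone 5-3.19. Clone 1-1.16 read 281 and clone 1-1.2 read 55.4. The parental value was under the filter signal, and the mean log2 difference was 2.69 and 3.49 with an offset 4 times larger and smaller. Rab4a, a GTPase of endosome recycling, read 820, 3153 and 3834, and Rab3b, a GTPase of secretory vesicles, read 1196, 2948 and 3012. The growth factor receptor Igf1r read 423, 1296 and 1269, and was higher still in the 1-1 clones, at 2218 and 2047. Stc1 (stanniocalcin 1), a secreted glycoprotein, read 492, 4548 and 2010, and 2248 and 3331 in set 1-1. Tnfrsf9 (4-1BB), a costimulatory receptor of lymphocytes, read 590, 3016 and 2508, and its 1-1 values of 271 and 2824 fell on both sides of the parental array. For Igf1r, Stc1 and Runx1 all 4 clones lay above the single parental array, which all such differences share.

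Metabolic enzymes were also among the increases. Gcsh, the lipoyl carrier protein of glycine cleavage, read 538 on the parental array, 7964 in clone 5-3.14 and 1898 in clone 5-3.19. Fbp1, a gluconeogenic enzyme, read 453, 1509 and 1341. The 5-3 clones were within a narrow span for Fbp1 and far apart for Gcsh. Both 1-1 clones were also above the parental value, at 2192 and 2713 for Gcsh and 1420 and 1607 for Fbp1. Gsta4, a glutathione transferase that acts on lipid aldehydes, read 267, 1000 and 2210, and Gstm1 read 441, 1214 and 1953. In the 1-1 clones Gstm1 stayed at the parental level, with 433 and 432. Mcm5, a subunit of the replicative helicase, read 800, 2500 and 2133.

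Gng3, a G protein gamma subunit of neurons, was another transcript far below the parental level. It read 3107 on the parental array, 129 in clone 5-3.14 and 38.5 in clone 5-3.19, with 5095 and 2453 in the 1-1 clones. Marchf7, a ubiquitin ligase, read 1029, 26.4 and 39.1, with 1030 and 1865 in set 1-1. Ccdc61, a protein of centrioles and basal bodies, read 1436, 79.0 and 123. For each of them the 5-3 clones lay below all other arrays and under the filter signal, so the size of the difference depends on the offset for these 3 genes too. With an offset 4 times larger, the log2 difference from the parental array was -4.27 for Gng3 and -3.82 for Gast, and their order turned. Rab34, a GTPase of the Golgi and cilium, read 577, 75.1 and 22.0, but its second probe set read 391, 296 and 358, and the probe sets disagree.

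Single receptor genes and a granule docking gene were low too, while their lists were not one-sided. Of 17 tested hormone and transmitter receptors, 7 were above the parental value in both clones and 7 below. Ramp1, a partner of calcitonin-type receptors, read 1361 on the parental array, 184 in clone 5-3.14 and 204 in clone 5-3.19, and the adenosine receptor gene Adora2b read 4182, 573 and 1245. The 1-1 clones were low for both, at 313 and 206 for Ramp1 and 554 and 750 for Adora2b. Sytl4 (granuphilin), which docks insulin granules at the plasma membrane, read 3234, 116 and 748, with 1708 and 978 in set 1-1. C2cd4b, a nuclear protein whose locus is linked to type 2 diabetes, read 947, 102 and 212, against 1164 and 912 in the 1-1 clones. Nefm, the medium neurofilament chain, read 570, 70.9 and 89.8, and the 1-1 clones remained near the parental value, at 453 and 491. The membrane protein genes Tmem176b and Tmem176a read 1182, 122 and 199 and 1044, 332 and 254, Kctd12, an auxiliary subunit of GABA-B receptors, read 2028, 395 and 317, and Hpgd, which inactivates prostaglandins, read 2181, 424 and 490. All 4 clones were at least 2-fold below the parental array for Ramp1, Adora2b, Tmem176b, Tmem176a, Kctd12 and Hpgd. Dtx1, a Notch pathway ligase, read 1061, 224 and 257. Rasgrp2, an exchange factor for Rap, read 830, 23.0 and 212, with a dim second probe set at 173, 117 and 130.

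**Figure D3:**
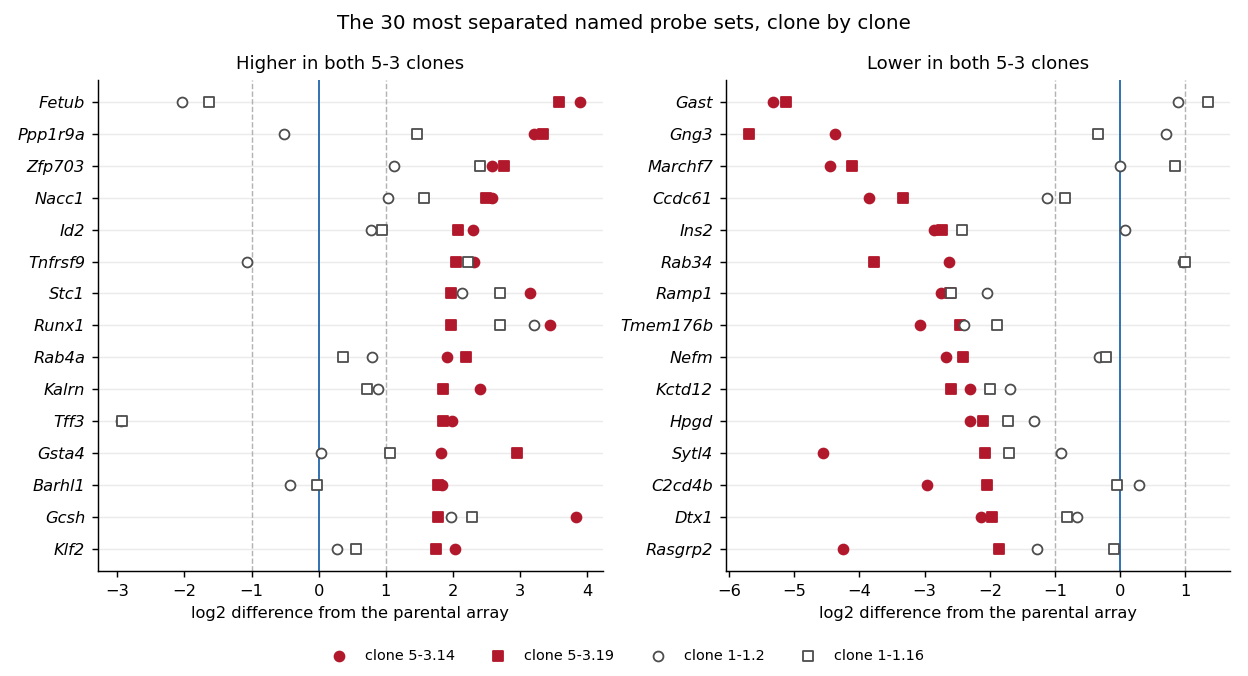
Log2 difference of signal from the parental array for the 15 named probe sets with the largest shared difference in each direction. Filled red points are the 5-3 clones, open grey points the 1-1 clones, the blue line is the parental array and dashed lines mark 2-fold. The 1-1 clones lie beside the 5-3 clones for Runx1 and Ramp1 and on the other side of the parental array for Fetub, Tff3 and Gast.

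Lists of genes by function were read against all tested probe sets, of which both clones lay above the parental value in 31.5% and below it in 34.2%. Sterol synthesis and uptake was a one-sided list: both 5-3 clones were below the parental value for 18 of 19 tested genes and above it for none. The median log2 difference was -0.56 in clone 5-3.14 and -0.79 in clone 5-3.19. Dhcr7, the last enzyme of cholesterol synthesis, read 5053 on the parental array, 2848 and 1990, and Insig1, which holds back the SREBP factors, read 10220, 6173 and 3803. Mvd, a mevalonate pathway enzyme, was the gene on which the clones parted, at 728, 866 and 618. Of the 19, only Tm7sf2, a sterol reductase, was at least 2-fold lower in both, and it sat at the limit in clone 5-3.14 (1889, 933 and 465). The 1-1 clones had list medians of -0.93 and -2.04 against the same parental array. Fatty acid synthesis genes were below in both 5-3 clones for 10 of 14, with medians of -0.25 and -0.93. Acss2 and Acsl3, which activate acetate and long-chain fatty acids, were the 2 genes at least 2-fold lower in both, at 8557, 4034 and 3315 and at 1720, 657 and 682. Scd2, a fatty acid desaturase, divided the clones, at 16642, 14012 and 4616. Set 1-1 had fatty acid list medians of -0.31 and -0.94, with Acss2 at 3249 and 2008 and Acsl3 at 1061 and 890.

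Neuronal cytoskeleton and signalling genes were below the parental value in both clones for 16 of 24 and above it for 3, with medians of -0.46 and -0.41. Gng3, Nefm and Sncb (beta-synuclein) were at least 2-fold lower in both, and Sncb read 7400 on the parental array, 1404 in clone 5-3.14 and 2356 in clone 5-3.19. Dcx (doublecortin), a microtubule protein of young neurons, read 2541, 1004 and 1518. Mapt (tau), Uchl1 and Thy1 were the genes above, with 1078, 1476 and 1795 for Mapt. In set 1-1 the list medians were -0.15 and -0.32, with Sncb at 3093 and 2553 and Dcx at 823 and 746. Transmitter synthesis and transport genes were below the parental value in both 5-3 clones for 6 of 7. Gad1, which makes GABA, read 664, 227 and 288, and Maob, a monoamine oxidase, read 4397, 1676 and 2486. The exception was Slc18a1, a vesicular monoamine transporter, at 1189, 1675 and 2409. In set 1-1 the transmitter list had medians of -0.39 and -1.39, with Gad1 at 504 and 206 and Maob at 2431 and 964. Ion channel and calcium pump genes were below in both 5-3 clones for 11 of 19. Among them were Kcnma1, a calcium-activated potassium channel, at 648, 244 and 217, and Gabrd, a GABA-A receptor subunit, at 2243, 460 and 765. Set 1-1 also read below the parental array for both, at 241 and 107 for Kcnma1 and 415 and 462 for Gabrd. The list median was -0.47 for 5-3.14 and -0.22 for 5-3.19. Both clones of set 1-1 had a list median below 0 too, at -0.55 and -0.61. Exocytosis genes did the reverse for 14 of 27, which were above in both clones, although Sytl4, described above, belongs to that list.

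Of 15 tested junction and keratin genes, 10 were above the parental value in both clones and 2 below, with medians of 0.33 and 0.13. Over both clones the median was 0.25, but 0.08 after quantile normalization and 0.05 without the filter. After Cdh1 the members with the largest shared difference were Pkp2 (plakophilin 2, a desmosome protein) at 194, 389 and 410, Espn (espin, an actin bundler of microvilli) at 467, 1191 and 877, and Epcam at 4688, 7926 and 9233. For Epcam the 1-1 clones were alike, at 8112 and 8954, and for Espn they were the reverse, at 73.4 and 76.5. Of 11 mucosal genes on the array, the rest were too dim to test and read either way, such as Tff1 at 298, 86.0 and 213 and Tff2 at 66.3, 176 and 147. The 4 tested mucosal genes were above the parental value in both clones. Muc13, a membrane mucin, read 2675, 5433 and 6899, Slc44a4 1156, 4167 and 1490, and Cdx2, the intestinal homeobox factor, 253, 265 and 370. Apart from Tff3 and Muc13, these stood 2-fold above in at most 1 clone. Of the integrins, Itgb1 read 2482, 4889 and 5384, with a second probe set at 1654, 3936 and 4375, and Itga6 read 297, 749 and 626. A dim second Itga6 probe set read the other way, at 176, 145 and 102, and Itga3 read 777, 782 and 540.

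Glutathione and antioxidant enzymes were above the parental value in both clones for 15 of 20 tested genes and below it for 2, with medians of 0.30 and 0.52. Gsta4, Gstm1 and Nqo1 (a quinone reductase) were at least 2-fold higher in both, and Nqo1 read 226 on the parental array, 1017 in clone 5-3.14 and 713 in clone 5-3.19. Prdx2, a peroxiredoxin, read 7670, 13401 and 13360, with the 1-1 clones at 7227 and 6140. Txnrd1, thioredoxin reductase, read 4801, 8813 and 7750, and in this case the 1-1 clones were as high, at 7389 and 7926. Txnip, a glucose-induced inhibitor of thioredoxin, divided the sister clones, at 13153, 1988 and 15373. Ribosomal protein genes were above in both for 16 of 18 by small amounts, with medians of 0.31 and 0.22 and none reaching 2-fold. Their median over both clones was 0.26 as deposited, 0.09 after quantile normalization and 0.17 after cyclic loess. The 1-1 clones had medians of 0.28 and 0.27 against the same parental array. Genes of endoplasmic reticulum stress and the amino acid response were below in both 5-3 clones for 16 of 27 and above for 5. Their medians were -0.17 and -0.32. Dnajb9, a chaperone partner induced by endoplasmic reticulum stress, read 2027, 718 and 864, and Hspa5 (BiP) read 14955, 10469 and 10178. Slc7a5, on the same list, was above in both, at 1181, 2553 and 2230. Set 1-1 had medians of 0.43 and 0.33 for this list. Dnajb9 was nonetheless below the parental array there too, at 1164 and 870. Hspa5 lay on both sides of it in set 1-1, at 20628 and 12753. None of these list medians was tested, and in each the same parental array is the reference.

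**Figure D4:**
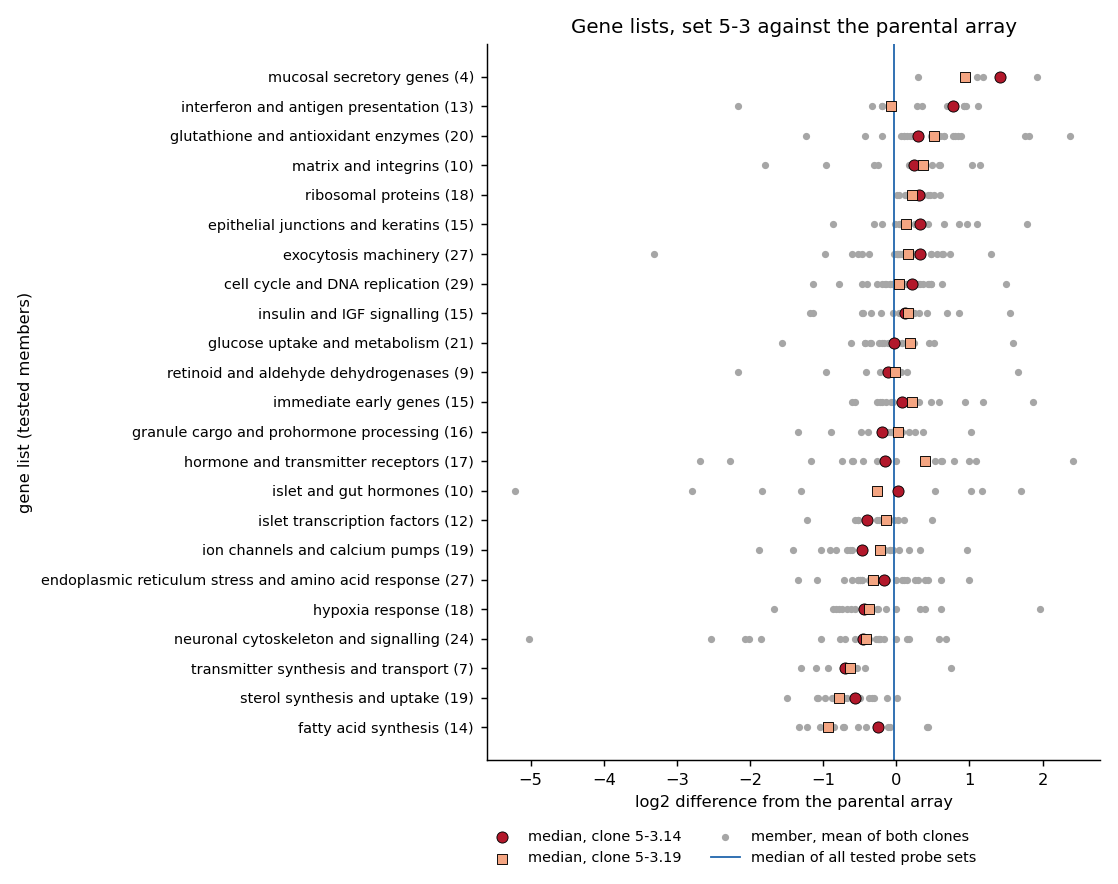
Log2 difference from the parental array for each gene list, with the number of tested members. Grey points are members (mean of both clones), the red circle and orange square are the medians of clones 5-3.14 and 5-3.19, and the blue line is the median of all tested probe sets, -0.03. Sterol synthesis lies left of the line (-0.56 and -0.79) and mucosal genes right of it.

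Set 5-3 was then tested against set 1-1, which leaves the parental array out of the contrast. Limma called 40 of 9520 probe sets (0.420%) at an adjusted p under 0.05, 21 higher and 19 lower in set 5-3, and 1413 had an unadjusted p under 0.05. Of the 40, 35 carried a single gene symbol. With 2 clones a set, its p-values rest on how far sister clones differ and not on how far independently made sets would. Leaving out clone 5-3.14 gave 221 calls and leaving out clone 5-3.19 gave 224. The parental array lay between the set means in 36 of the 40, against 3225 of all 9520. The median gap between the set means was 2.32 on the log2 scale in the 40 and 0.26 over all tested. It was nearer to set 5-3 in 12 of the 21 higher probe sets and nearer to set 1-1 in 15 of the 19 lower ones. Over all tested probe sets it was nearer to set 5-3 in 54.0%.

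Tff3 was 29.1-fold higher in set 5-3 than in set 1-1 (fitted log2 difference 4.87, SE 0.18, adjusted p = 0.000383, limma), Muc13 7.14-fold (adjusted p = 0.0148), Cdh1 5.38-fold (adjusted p = 0.0115) and Barhl1 4.10-fold (adjusted p = 0.0363). Fetub, Slc18a1 and Espn were called too, with both 1-1 clones under the filter signal, so that they passed the filter through the other arrays and their fitted difference moves with the offset. For Fetub it was 5.58 (SE 0.28, adjusted p = 0.000987), and 4.54 and 6.03 with an offset 4 times larger and smaller. For Espn it was 3.43 (adjusted p = 0.0106), and 2.78 and 3.68 with those offsets. Both 1-1 clones read lower than the parental array for Muc13, at 1005 and 700, and both 5-3 clones higher. Nkain1, which interacts with the sodium pump, read 463 on the parental array, 1255 and 1319 in set 5-3 and 208 and 250 in set 1-1 (adjusted p = 0.0176). Fibronectin (Fn1) read 4972 on the parental array, 8221 and 6953 in set 5-3 and 2314 and 2618 in set 1-1 (adjusted p = 0.0382), and Igfbp7, a secreted growth factor binding protein, 4390, 7871 and 8048, and 2984 and 3296 (adjusted p = 0.0493). Slc18a1, chosen after its values were seen, had 71.0 and 119 in set 1-1, far below the parental 1189 and the 5-3 values (fitted log2 difference 4.15, and 3.54 and 4.37 with those offsets, adjusted p = 0.00839). For Slc18a1 and Espn the parental array lay nearer to the 5-3 clones, and for Barhl1 it lay beside the 1-1 clones.

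Among the genes lower in set 5-3, both 5-3 clones were under the filter signal for Gast, Gng3, Marchf7, Rab34, Ccdc61, Nefm and Nefl. These passed the filter through the other arrays, dim signals cannot be told from background here, and the sizes move with the offset. For Gast the fitted log2 difference was -6.33 (SE 0.27, adjusted p = 0.000499, limma), and -4.90 and -7.16 with an offset 4 times larger and smaller. It was -5.22 for Gng3 (adjusted p = 0.0176), and -4.46 and -5.52 with those offsets. Marchf7 had -4.70 (adjusted p = 0.00839), and -3.62 and -5.21. Limma also called Rab34 by 1 of its probe sets (adjusted p = 0.0176) and Ccdc61 (adjusted p = 0.0309). The neurofilament genes Nefm and Nefl were both lower (adjusted p = 0.0363 for each). Nefl read 212 on the parental array, 114 and 115 in set 5-3 and 589 and 881 in set 1-1, so its sets lay on both sides of the parental value. C2cd4b was 6.20-fold lower (adjusted p = 0.0450). Ldhb, the heart type lactate dehydrogenase subunit, read 1544 on the parental array, 455 and 573 in set 5-3 and 2636 and 1872 in set 1-1 (4.21-fold, adjusted p = 0.0419). Of the 40, 10 were called in every alternative setting in which they were tested, 9 of them with a single symbol. These were Gast, Fetub, Tff3, Cdh1, Muc13, Espn, Marchf7, Slc18a1 and Plac8. Plac8, a small cysteine-rich protein also named after its values were seen, read 3509 on the parental array, 8997 and 8529 in set 5-3 and 1814 and 1575 in set 1-1.

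**Figure D5:**
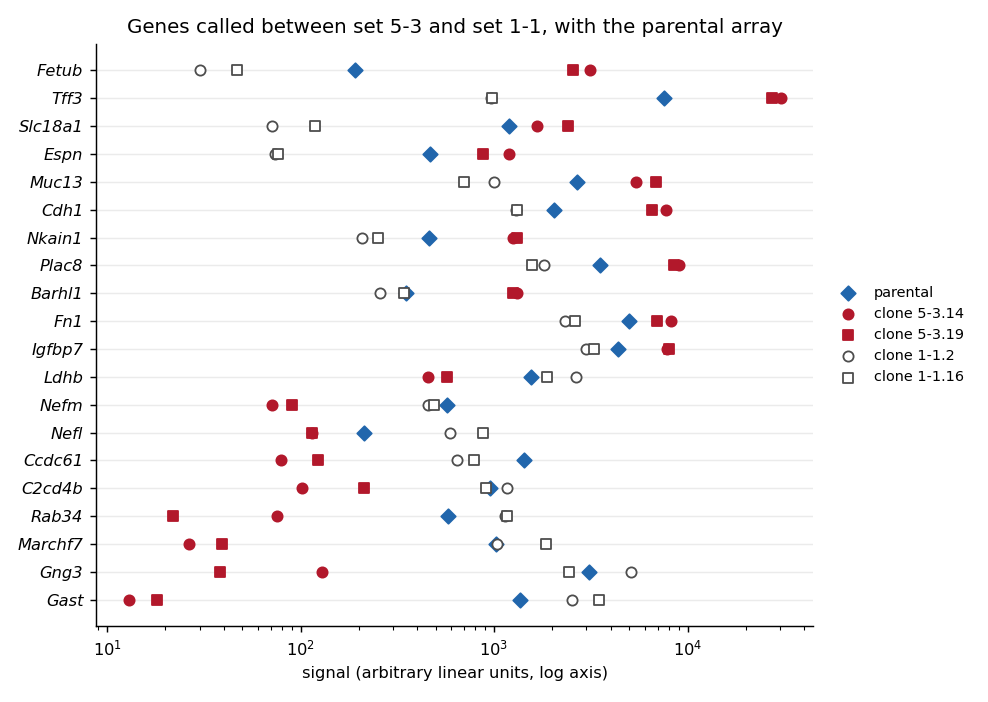
Signals (log axis, arbitrary linear units) on each of the 5 arrays for the 20 described genes that limma called between set 5-3 and set 1-1, ordered by fitted difference. The blue diamond is the parental array, red points the 5-3 clones and open points the 1-1 clones. The parental value lies between the sets for Tff3 (7592) and beside set 1-1 for Gng3 (3107).

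The sister clones were not copies of each other. Between them 627 probe sets differed by 2-fold or more, and 10 lay at least 2-fold on opposite sides of the parental array, 3 with clone 5-3.14 higher and 7 with clone 5-3.19 higher. Igfbp1, a binding protein of insulin-like growth factors, read 940 on the parental array, 64.9 in clone 5-3.14 and 2161 in clone 5-3.19. Faim2, an inhibitor of Fas-mediated death, read 540, 158 and 2818, and Fars2, the mitochondrial phenylalanyl-tRNA synthetase, read 1775, 743 and 4380. Cdh11, a mesenchymal cadherin, went the other way at 197, 567 and 40.4, as did the sialyltransferase gene St3gal1 at 1570, 3280 and 654. Aldh1a1, an enzyme of retinoic acid synthesis, read 599 and 664 on the parental and 5-3.14 arrays and 5664 in clone 5-3.19. The neuronal secreted proteins Nell2 and Olfm1 were low in clone 5-3.14 alone, at 16.3 against 435 and 290 for Nell2 and at 56.7 against 864 and 746 for Olfm1 (parental and clone 5-3.19). Clone 5-3.14 was 2-fold or more lower than the parental array in 533 probe sets and clone 5-3.19 in 248, of which 130 were shared.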

How the data were processed

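Total RNA of 5 samples was hybridised to single-colour rat arrays. The deposited table gives 1 intensity per probe set and array, on a linear scale as its values show. What software, background correction or detection calls the authors used is not given in the sources used here, and the signals were used as deposited. Of 15923 probe sets, 57 controls were left out. The platform annotation gives 1 symbol for 12783 probe sets, several for 312 and none for 2771, and 12748 were matched to GRCr8 by gene number.

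Signals were taken as log2(signal + 21.8), the offset being the 10th percentile of positive signals, which understates folds of dim genes. Probe sets at or above the 40th percentile of mean log2 level were tested. Counts of probe sets 2-fold away in both clones involve no test. Limma 3.58.1 in R 4.3.3 fitted the parental line, set 1-1 and set 5-3 as 3 groups with an intensity trend and Benjamini-Hochberg adjustment (threshold 0.05). Residual degrees of freedom were 2. The single parental array is taken to scatter as the clones do, and p-values cover only the spread between these clones. The brightest tested probe set stood for a gene in a list. The fit was tested on simulated data.

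Named genes are the 15 with the largest shared difference each way, those farthest from all other arrays, those shared with both 1-1 clones, those on opposite sides in the sister clones, up to 4 per list and a set of beta cell genes. Members and lists were chosen with earlier results of these data known. Alternatives covered scaling, offset, filter, variance model, fold limit, choice of probe set, samples in the fit and leaving out each clone.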

Additional observations from a re-analysis of the deposited data

Results flagged for a closer look

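For 20 genes described above, the difference from the parental array was not the same in the clone sets, by limma's test of set 5-3 against set 1-1 (Benjamini-Hochberg adjusted p under 0.05, log2 values of set 5-3 minus set 1-1). Among them, these mucosal, junction and secreted genes had positive differences: Fetub 5.58, Tff3 4.87, Espn 3.43, Muc13 2.84, Cdh1 2.43, Fn1 1.61 and Igfbp7 1.34. Positive differences were also found for Slc18a1 at 4.15, for Nkain1 at 2.39, for Plac8 at 2.36 and for Barhl1 at 2.04. The gastrin gene and the called genes of the neuronal list had negative differences: Gast -6.33, Gng3 -5.22, Nefl -2.44 and Nefm -2.28. Other tested members of the neuronal list were not called, and their differences went either way. The rest of the negative differences were those of Marchf7 at -4.70, Rab34 at -4.18, C2cd4b at -2.63, Ccdc61 at -2.61 and Ldhb at -2.08. The second Rab34 probe set gave -0.39 and was not called. Both 5-3 clones were under the filter signal for Gast, Gng3, Marchf7, Rab34, Ccdc61, Nefm and Nefl. Both 1-1 clones were under it for Fetub, Espn and Slc18a1. All of these passed the filter through the other arrays, so their sizes move with the offset and their calls are descriptions.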

How the results depend on the processing

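The 119 probe sets higher and 130 lower in both 5-3 clones became 426 and 415 at a fold limit of 1.5, 21 and 36 at 3, 279 and 425 without the filter and 63 and 56 with the filter at the 60th percentile. With an offset 4 times larger, 74 were higher. With 1 clone left out, the other alone gave 244 to 316 higher and 248 to 533 lower. Limma's 1 call against the parental array became 4 with the larger offset, 5 after quantile normalization, 5 after median centring, 5 after cyclic loess and 19 in a fit of the parental line and set 5-3 only. Limma called 0 without the filter (1197 at an unadjusted p under 0.05) and 0 with the stricter filter (467). Leaving out 1 clone gave 14 to 141, with 19 without clone 1-1.2, 17 without clone 1-1.16, 14 without clone 5-3.14 and 141 without clone 5-3.19. The 40 calls between the sets became 70 after median centring, 10 without the filter and 12 with the stricter filter, and 50 to 224 with 1 clone left out. Without clone 5-3.14 there were 221. The causes of these changes were not tested, except that a stricter or absent filter changes the number of probe sets tested.

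Of the 23 list medians, 150 values under other settings stayed within the spread between the clones, 28 moved and 6 changed sign. Sign changes were counted only for lists whose medians had the same sign in both clones. The retinoid list went from -0.03 to 0.03 after median centring and quantile normalization, 0.01 after cyclic loess, and 0.06 with no filter and with the stricter filter, and the matrix list from 0.33 to -0.25 without the filter. Of the named probe sets' differences, 585 values stayed within that spread and 90 moved. Most of these probe sets were chosen for a large shared difference, so a stable sign says little. For Cdh11, on which the sister clones lay on opposite sides, the mean difference went from -0.19 to 0.02 with an offset 4 times larger. The replicate numbers of the labels are clone numbers that no groups share: No paired analysis was possible because the groups compared share fewer than 2 numbers. Dim signals cannot be told from background here.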

Other observations

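Some further gene groups were also read. Antigen presentation genes were mixed: B2m, the light chain of class I molecules, read 9091 on the parental array, 17362 in clone 5-3.14 and 17139 in clone 5-3.19, while Sting1, a sensor of cytosolic nucleotides, read 501, 210 and 37.4. Both B2m probe sets lay above the parental value in both clones, the second with 1119, 2395 and 2558. In set 1-1 the brighter B2m probe set read 12492 and 11251, and Sting1 read 836 and 468. Bst2, an interferon-induced membrane protein, divided the clones, with 1692, 6367 and 1325. Of 13 tested genes of this list, 6 were above the parental value in both clones and 3 below.

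Of 29 tested cell cycle genes, Mcm5 was at least 2-fold higher in both clones and none was 2-fold lower, which is near the shares of 1.25% and 1.37% over all probe sets. Cdkn1b (p27), an inhibitor of cyclin-dependent kinases, read 5592, 3811 and 1677. Hypoxia response genes were below the parental value in both clones for 10 of 18 and above it for 4. Ankrd37 read 1506, 622 and 337, whereas Stc1, also on this list, read 1880, 9879 and 5536 with its brighter probe set. The 1-1 clones lay on the same sides, at 643 and 320 for Ankrd37 and 6097 and 8551 for Stc1. Of 15 immediate early genes, Junb (77.4, 223 and 515) and Phlda1 (81.9, 230 and 201) were at least 2-fold higher in both clones, from signals below the filter level on the parental array. Over all probe sets 1.25% were higher in both. The 1-1 clones also lay above the parental array, at 260 and 311 for Junb and 692 and 238 for Phlda1. The median of this list over both clones was -0.04, with 7 genes above the parental value in both and 3 below.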
